A study of Mus musculus with 6 samples.

Results

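The genes described here encode the pore-forming and accessory subunits of potassium, sodium and calcium channels. They were every gene whose symbol began with Kcn, Scn or Cacn, apart from Kcne2, and whose brightest single-symbol probe set lay above the median of its own array on at least 2 of the 6 arrays. Of 122 channel genes on the array, 85 met that rule, of 11739 genes that met it in all. They were 56 of 83 potassium, 9 of 15 sodium and 20 of 24 calcium channel genes. The level of expression alone chose them, so their being expressed is a description and not a result. Of the 85 genes, 82 lay above the median on all 6 arrays, so the rule seldom used a difference between groups. Kcnj6, Cacna1f and Cacng3 passed on 3, 4 and 5 arrays. Just inside the limit, Kcnj6 averaged -0.03, Cacna1f 0.02, Kcna7 0.10 and Kcne4 0.11 relative to the array median on the log2 scale, and just outside it Kcnk4 averaged -0.10, Scn7a -0.11, Kcnk7 -0.14 and Kcna5 -0.14. Of the 85, 3 carry the prefix without encoding a subunit: Kcnq1ot1 is a noncoding RNA, Kcnmb4os2 an antisense RNA and Scnm1 a splicing factor. They are counted among the 85 because the rule took them in.

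Channel subunits set how a neuron fires. Voltage-gated sodium channels start the action potential, potassium channels end it and set the resting potential and the interval between spikes, and calcium channels couple it to transmitter release and to signalling in dendrites. A pore is built from alpha subunits, and accessory subunits change where the pore is placed and how fast it opens, closes and inactivates. In hippocampal pyramidal cells the A-type current, the M-current and the potassium current through G-protein-gated channels are known to limit excitability.

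Hippocampus was taken from male DBA/2 mice that were housed singly and drank water with or without venlafaxine, an inhibitor of serotonin and noradrenaline reuptake, for 30 days. The control group received 0, the low dose group 30 and the high dose group 100 mg/kg per day. Material of 10 animals per dose group was combined by brain side, which gave 1 left and 1 right pool per dose and 6 arrays of the Affymetrix Mouse Genome 430 2.0 design. Age is not given in the sources used here, nor whether the left and right pools came from the same animals. With 2 pools per dose, a p-value measures the spread between pools and not between mice, and a pool hides the spread among its animals. In pooled tissue, fewer cells of a type and less RNA per cell cannot be told apart.

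Replicate 1 of every dose, and replicate 2 of the low dose, were hybridized on a first date. Replicate 2 of the control and of the high dose were hybridized on a later date. The later arrays carried the lowest RNA integrity numbers (RIN), 7.9 and 8.2, against 8.5 to 9.1 for the other 4, so date and RIN went together. In the dose comparisons the spread within a dose holds the difference between sides. For control and high dose it also holds the date and RIN difference. With date as a term, 44 of all genes (0.375%) and 0 channel genes passed for high dose against control. No pair of arrays held identical values. All 17 markers of dentate granule, CA1 and CA3 or CA2 neurons passed the level rule. Markers of the striatum (6 of 9), neocortex (4 of 6), thalamus (6 of 6) and choroid plexus (7 of 8) also passed. Levels of the striatal, neocortical and choroid plexus markers are given beside channel genes below.

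Over all 6 arrays a channel gene spanned a median range of 0.28 log2 units, against 0.25 for all genes tested. The narrowest was the leak channel gene Kcnk12 at 0.06, and the widest the inward rectifier gene Kcnj13 at 0.79. The range exceeded 0.5 in 10 channel genes and stayed under 0.2 in 22. Control replicate 1 held the highest value of 34 of the 85 genes (40.0%, against 28.9% of all genes tested), and control replicate 2 the lowest of 31 (36.5%, against 34.6%). The control arrays thus lay near both ends for many channel genes, which the map of deviations shows as a warm first and a cold second column.

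**Figure D1:**
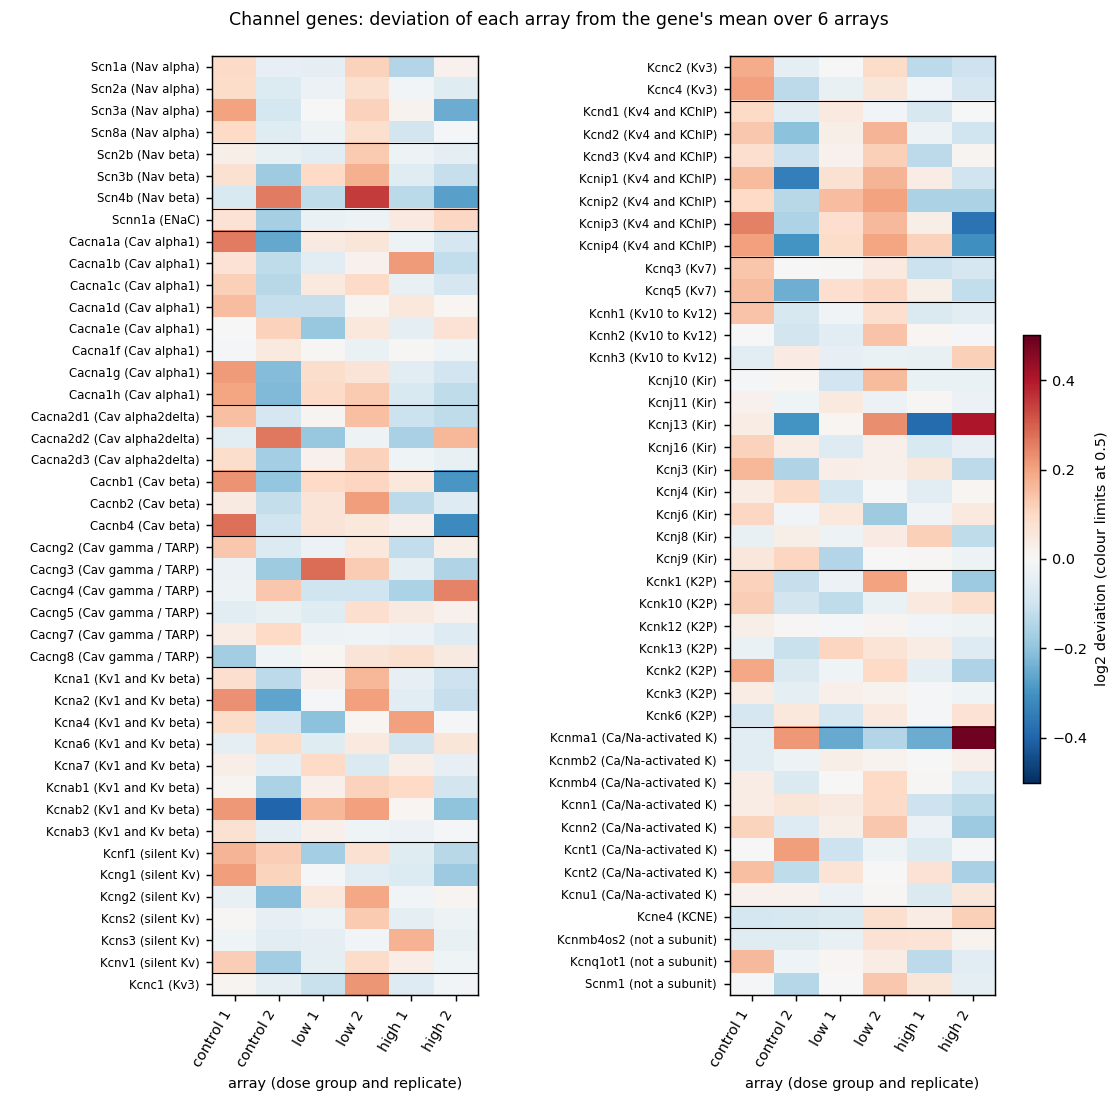
Deviation of each array from the gene's own mean over 6 arrays (log2, colour limits at 0.5 in either direction), with 1 row per channel gene, grouped by family, and 1 column per array. Control replicate 1 is highest in 34 genes and control replicate 2 lowest in 31, and the darkest cells belong to Kcnj13 and Kcnma1 on high dose replicate 2.

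The high dose was set against control to ask which channel genes the larger amount of drug altered. None of the 85 passed an adjusted p of 0.05 (limma, Benjamini-Hochberg over all genes tested), where 1 of 11739 genes (0.00852%) did. At an unadjusted p under 0.05 there were 3 channel genes, 3.53% against 2.76% of all genes (324). The median difference of the channel genes was -0.04 and that of all genes -0.03. The groups did not overlap for 22 channel genes, 25.9% against 26.7% of all genes, a share near the background. Of these, 6 were higher (7.06%, against 8.02%) and 16 lower (18.8%, against 18.7%). Means were lower in 59 of 85 (69.4%, against 64.1% of all genes), but this turned to 37 of 85 when each array was centred on its median and 45 of 85 after quantile normalization.

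Among the modifier subunits of the Kcnf, Kcng, Kcns and Kcnv groups, which form no channel alone and alter Kv2 pores, Kcng1 and Kcnf1 had the most negative differences between high dose and control. Kcng1 measured 8.64 and 8.54 in control, 8.42 and 8.38 at the low dose and 8.37 and 8.25 at the high dose. The 3 groups did not overlap and stepped down with dose, which only Cacng7 also did among the 85 (2.35%, against 1.08% of all genes). None stepped up in the same way, as 0.443% of all genes did. High dose minus control was -0.28 (SE 0.10, limma adjusted p = 0.9997), and it was alike within the first date (-0.27) and within the later (-0.29). Kcnf1 measured 9.88 and 9.84 in control, 9.54 and 9.79 at the low dose and 9.65 and 9.58 at the high dose. Both controls lay above all 4 treated arrays, and high dose minus control was -0.25 (limma adjusted p = 0.9997). The second probe set of each of these genes lay below the median on all 6 arrays, so each rests on 1 probe set. Kcng2, of the same group, was placed the other way, at 8.64 and 8.47 in control, 8.73 and 8.87 at the low dose and 8.66 and 8.69 at the high dose. Neither direction passed the test.

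Both controls exceeded all 4 treated arrays for 7 channel genes (8.24%, against 4.39% of all genes), namely Cacng7, Kcnf1, Kcng1, Kcnj16, Kcnj4, Kcnj9 and Kcnt1. They lay below all 4 for 5 (5.88%, against 3.56%), namely Cacng8, Kcne4, Kcng2, Kcnmb2 and Kcnmb4os2. Cacng7 and Cacng8, neighbours in the genome that encode AMPA receptor auxiliary subunits, lay on opposite sides of this line. Cacng7 measured 8.75 and 8.81 in control, 8.69 and 8.69 at the low dose and 8.68 and 8.65 at the high dose. Cacng8 measured 7.89 and 8.04 in control, 8.07 and 8.13 at the low dose and 8.15 and 8.11 at the high dose. The steps are small, -0.12 and 0.16 for high dose minus control, and the 2 probe sets of Cacng8 disagreed (0.16 and -0.05).

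No sodium channel gene passed in a dose comparison. Scn2a, an alpha subunit of excitatory axons, measured 12.75 and 12.59 in control, 12.63 and 12.74 at the low dose and 12.64 and 12.60 at the high dose. High dose minus control was between -0.17 and -0.05 for the 4 alpha subunits Scn1a, Scn2a, Scn3a and Scn8a, which became 3 of 4 below 0 after centring. Low dose minus control lay between 0.0017 and 0.014, and all 4 turned below 0 after centring or quantile normalization. The beta subunits are small membrane proteins that steer alpha subunits and bind adhesion partners. Of the 3, Scn2b and Scn4b are neighbours on chromosome 9 with no other protein-coding gene between them. On its brightest probe set Scn2b stayed between 12.40 and 12.59 on all arrays, with -0.03 for high dose minus control and -0.04 for later minus first date. Its other probe set above the level rule gave 0.11 and 0.24 for these. Scn3b measured 12.00 and 11.74 in control, 12.02 and 12.10 at the low dose and 11.86 and 11.81 at the high dose. Both low dose arrays were the highest, with low dose minus control at 0.19 (limma adjusted p = 1.0) and high dose minus low dose at -0.23 (adjusted p = 0.798). Scn4b measured 9.18 and 9.52 in control, 9.13 and 9.61 at the low dose and 9.13 and 8.99 at the high dose. The high dose arrays were the lowest along with low dose replicate 1, and high dose minus control was -0.29 (SE 0.13, limma adjusted p = 0.9997).

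The 250 bases before the start of the neighbouring genes Scn2b and Scn4b are shown because the genes share a locus. On the brightest probe set of each, Scn4b varied more from array to array than Scn2b. The sequences are RefSeq's on GRCm38.p6, at chr9:45117626-45117875 for Scn2b and chr9:45138374-45138623 for Scn4b, both on the plus strand. Capitals mark CG dinucleotides, of which Scn2b has 1 in a stretch of 38.4% GC and Scn4b 23 in a stretch of 66.0% GC.
Scn2b: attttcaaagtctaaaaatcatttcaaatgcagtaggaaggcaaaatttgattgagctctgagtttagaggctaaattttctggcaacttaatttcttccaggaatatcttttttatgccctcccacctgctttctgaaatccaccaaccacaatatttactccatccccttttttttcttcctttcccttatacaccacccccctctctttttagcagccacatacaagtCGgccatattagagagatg
Scn4b: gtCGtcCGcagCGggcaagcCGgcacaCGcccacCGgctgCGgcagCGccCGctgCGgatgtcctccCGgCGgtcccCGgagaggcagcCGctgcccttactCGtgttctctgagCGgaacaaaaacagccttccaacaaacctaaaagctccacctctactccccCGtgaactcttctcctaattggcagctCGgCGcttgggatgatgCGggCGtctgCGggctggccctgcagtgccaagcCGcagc

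Scn4b is also known as a gene of striatal projection neurons, and striatal marker genes were read beside it. The mean deviation of 6 striatal markers was 0.06 and 0.23 on the control arrays, -0.06 and 0.15 at the low dose and -0.06 and -0.32 at the high dose. All 6 had lower means at the high dose than in control (median -0.33), and all 6 were higher on the left side (median 0.22). The fall was not particular to striatal markers, as 4 of 4 neocortical markers were also lower at the high dose (median -0.25). Their mean deviation was 0.25 and 0.05 in control, -0.11 and 0.05 at the low dose and -0.01 and -0.23 at the high dose. On the left side 3 of these 4 were higher. Of 6 thalamic markers, 3 were lower at the high dose and 3 higher. Of the defining striatal markers Drd1 passed the level rule, while Drd2 exceeded its array's median on 1 array. The part of striatal or neocortical tissue in the Scn4b values was not tested.

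Other potassium channel genes without overlap between high dose and control included pores that shape repetitive firing. Kcnc2, a Kv3 pore of fast-spiking interneurons, measured 11.73 and 11.50 in control, 11.54 and 11.63 at the low dose and 11.41 and 11.44 at the high dose, for a difference of -0.19. Kcnq3, a pore of the M-current, measured 11.88 and 11.74 in control, 11.75 and 11.79 at the low dose and 11.64 and 11.66 at the high dose, for -0.16. Kcnn1, a small-conductance channel opened by calcium, measured 8.16 and 8.19 in control, 8.17 and 8.22 at the low dose and 8.02 and 7.99 at the high dose, for -0.17. On the brightest probe set of each of these genes the high dose arrays were the lowest of the 6, and none passed (limma adjusted p = 0.9997). The other Kcnn1 probe set above the level rule gave 0.03 for high dose minus control. Kcnt1, opened by sodium, lay lower at both doses, at 9.23 and 9.44 in control, 9.12 and 9.20 at the low dose and 9.16 and 9.22 at the high dose. Among the leak channels, which hold the resting potential, Kcnk1 measured 12.29 and 12.06 in control, 12.14 and 12.37 at the low dose and 12.18 and 11.99 at the high dose, with overlap throughout.

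The calcium channel genes gave no call by dose. The 8 alpha1 subunits, the pores, ran from -0.09 (Cacna1h, T-type) to 0.07 (Cacna1b, N-type) for high dose minus control. The cytoplasmic beta subunits, which carry the pore to the membrane, were lower in all 3 cases, also after centring and quantile normalization. Cacnb4 had the largest difference among them, at 12.12 and 11.75 in control, 11.91 and 11.90 at the low dose and 11.87 and 11.53 at the high dose. The groups overlapped, and high dose minus control was -0.23 (limma adjusted p = 0.9997). Without control replicate 2 it was -0.42 and passed (limma adjusted p = 0.04), as did Kcnip3 (-0.42, adjusted p = 0.0385), so both calls depended on that array; 178 of all genes (1.52%) passed in that fit, whose control arm is 1 array.

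For the low dose, none of the 85 genes passed (limma, adjusted over all genes tested), where 5 of 11739 did (0.0426%), 4 of them lower (0.0341%). At an unadjusted p under 0.05 there were 2 channel genes, Cacng3 and Kcng2 (2.35%), against 390 of all genes (3.32%). Means were lower in 30 of 85 (35.3%, against 32.4% of all genes), and in 47 after centring and 44 after quantile normalization. The groups did not overlap for 22 channel genes, 25.9% against 21.2% of all genes. Of these, 12 were higher (14.1%, against 13.4%) and 10 lower (11.8%, against 7.79%). Cacng3, another AMPA receptor auxiliary subunit, measured 7.93 and 7.78 in control, 8.24 and 8.08 at the low dose and 7.91 and 7.81 at the high dose. Both low dose arrays lay above the other 4, by 0.31 over control (SE 0.11, limma adjusted p = 1.0), and the gene sat near the level limit, above it on 5 arrays. Kcnma1, the calcium-activated BK channel, lay lower at the low dose by -0.28 without passing, a value that turned to 0.14 with RIN as a covariate. Kcnab2, a cytoplasmic Kv1 partner, lay higher by 0.28, and turned to -0.03 without control replicate 2 and on the first date alone. Without control replicate 1, 7 channel genes passed, among them Kcnab2 (0.58), Kcnip1, Kcnip4 and Kcnma1, and so did 546 of all genes (4.65%). The control arm is then 1 array, assumed to vary like the others, and the count for the low dose thus depended on which control arrays were used.

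Set against the low dose, the high dose gave no call among all 11739 genes (0.0%, limma), with 8 channel genes (9.41%) and 728 of all genes (6.2%) at an unadjusted p under 0.05. Means were lower in 63 of 85 (74.1%, against 77.2% of all genes), and in 38 after centring and 42 after quantile normalization. The groups did not overlap for 36 channel genes, 42.4% against 41.3% of all genes, again near the background. Of these, 34 were lower (40.0%, against 37.3%) and 2 higher (2.35%, against 3.97%). Several families lay lower as a whole on their brightest probe sets. Among them were the 3 calcium channel beta subunits (-0.23 to -0.20, none overlapping) and the A-type potassium channel set. Another probe set of Cacnb4 above the level rule measured 9.05 and 9.12 at the low dose and 9.01 and 9.52 at the high dose. Kcnd1, Kcnd2 and Kcnd3 form the A-type pores, and Kcnip1 to Kcnip4 encode the calcium-binding KChIP proteins that speed their recovery. On their brightest probe sets all 7 had lower means at the high dose than at the low dose (median -0.16). So did 7 of 7 after quantile normalization and 6 of 7 after centring. Another probe set of Kcnd2 above the level rule measured 10.26 and 10.19 at the low and 10.02 and 10.54 at the high dose. A further one measured 10.93 and 10.93 at the low and 10.91 and 11.11 at the high dose. Both had higher means at the high dose, as did the other such set of Kcnd1. Markers of several cell types were also lower at the high dose, in 6 of 6 for oligodendrocytes (median -0.35), 6 of 6 for interneurons (-0.14), 5 of 5 for CA1 and 6 of 6 for CA3 and CA2 neurons. The median of all genes was -0.07. Other lists were mixed, with higher means in 3 of 7 choroid plexus, 3 of 6 vessel, 2 of 5 microglia and 2 of 6 dentate granule markers. Means were higher in 2 of 6 astrocyte, 1 of 6 striatal, 1 of 4 neocortical, 1 of 6 thalamic and 6 of 7 neuronal activity markers. The mean deviation of the oligodendrocyte markers was 0.14 and 0.26 on the low dose arrays and 0.01 and -0.27 on the high dose arrays, and their part in the channel values was not tested. Kcnip2 measured 10.57 and 10.33 in control, 10.62 and 10.67 at the low dose and 10.31 and 10.31 at the high dose. High dose minus low dose was -0.34 (SE 0.11, limma adjusted p = 0.762), and it passed when either or both control arrays were left out of the fit (limma adjusted p = 0.0482), where 151 of all genes did (1.29%). Both high dose arrays lay below the other 4, only just below the later control array, and high dose minus control was -0.14. These comparisons share arrays, so they do not support each other.

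**Figure D2:**
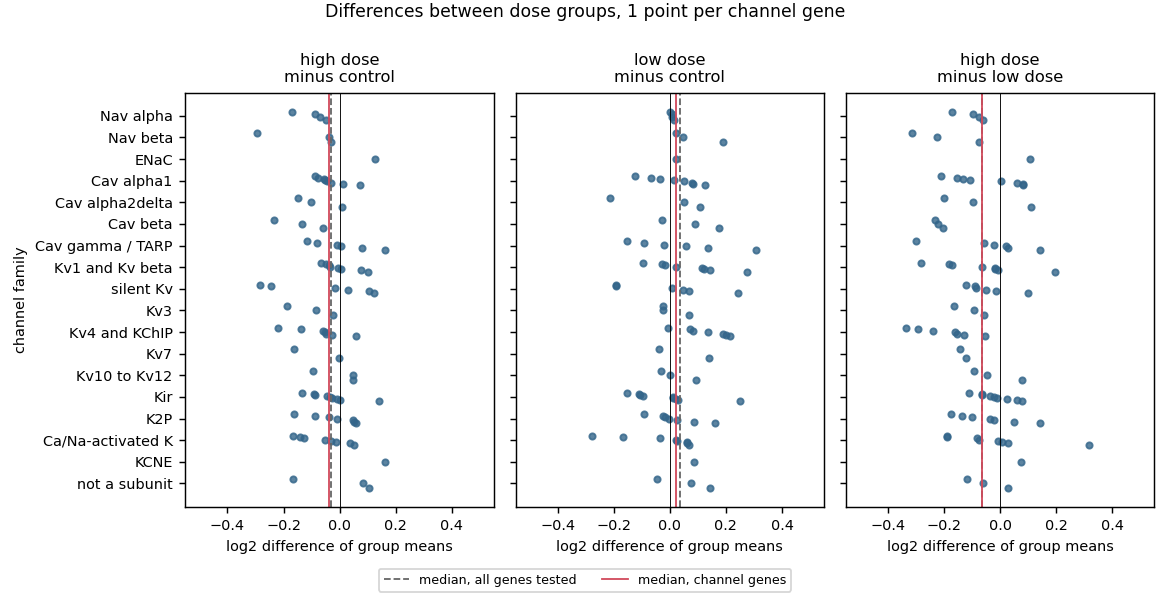
Log2 difference of group means for each channel gene, by family, for high dose minus control, low dose minus control and high dose minus low dose. The solid line is the median of the channel genes and the dashed line that of all genes tested, at -0.04 and -0.03, 0.02 and 0.04, and -0.07 and -0.07 from left to right.

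The later and the first date were compared with dose group as a term, so the contrast came from the control and the high dose pairs alone. Here 13 of the 85 channel genes passed (15.3%), where 818 of 11739 genes (6.97%) did. In all, 10 fell (11.8%, against 5.73% of all genes) and 3 rose (3.53%, against 1.24%). The split between directions was 7 lower and 5 higher after centring and 8 lower and 4 higher after quantile normalization. Those 12 of 85 stood against 11.2% of all genes after centring and 12.1% after quantile normalization, so the gap to the background was much smaller there. At an unadjusted p under 0.05 there were 25 channel genes (29.4%, against 19.5%). First and later arrays did not overlap, leaving dose aside, for 39 (45.9%, against 35.4%), 31 lower (36.5%, against 30.2%) and 8 higher (9.41%, against 5.2%). The fitted difference was below 0 in 65 (76.5%, against 68.9%), but in 42 after centring and 49 after quantile normalization. The later array was the lower in both pairs for 44 (51.8%, against 45.7%). All genes shared 1 standard error in this fit (0.09), so the p-values order genes by the size of the difference. Date and RIN changed together and cannot be fully told apart. Side changed the opposite way in the 2 pairs (right to left in control, left to right at the high dose), so it is balanced in the date difference. With RIN as a covariate 1 channel gene passed (Kcnj13, 1.01), and 0.187% of all genes did. With side as a term the differences were the same and 6 channel genes passed, against 3.0% of all genes.

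Markers of cell types moved on date as well. Of 6 oligodendrocyte markers 2 fell (median -0.23, Mog -0.52), and 1 marker each of CA1 neurons (Wfs1, -0.44) and neocortex (Tbr1, -0.51) and the microglial C1qb (-0.57) fell too. So did Lct of dentate granule cells (-0.34), the striatal Pde10a (-0.32), the astrocytic Slc1a3 (-0.40) and the vessel marker Pdgfrb (-0.27). Others rose, namely the microglial Cx3cr1 (0.31), Ttr of choroid plexus (0.33) and Dcn of vessels and meninges (0.33). The 6 interneuron markers had a median of -0.21 with none called. Their part in the channel values was not tested.

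Among the genes of the A-type set, Kcnip4 fell most. It measured 10.91 on the first and 10.41 on the later control array, 10.80 and 10.90 at the low dose, and 10.82 on the first and 10.40 on the later high dose array. Both later arrays lay below the other 4, and the fall was -0.46 (1.38-fold lower, limma adjusted p = 6.26e-05). Kcnip3, also known as the calcium-dependent repressor DREAM, fell by 0.40 (limma adjusted p = 0.000822) and Kcnip1 by 0.32 (adjusted p = 0.0135). Over the brightest probe sets of the 7 members the median was -0.21, with all 7 below 0, 5 after centring and 6 after quantile normalization. The other probe sets of Kcnd2 above the level rule gave 0.275 and 0.11, and that of Kcnd1 gave 0.07.

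Of the Kv1 delayed rectifiers and their partners, Kcnab2 fell by 0.41 (limma adjusted p = 0.000592) and the axonal pore Kcna2 by 0.28 (adjusted p = 0.0418). Kcnab2 measured 11.76 and 11.15 in control, 11.71 and 11.75 at the low dose and 11.55 and 11.34 at the high dose. Its control pair differed by -0.61 and its high dose pair by -0.21. Kcnq5, a pore of the M-current, fell by 0.27 (limma adjusted p = 0.0447), with -0.40 in the control and -0.15 in the high dose pair.

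For the calcium channel genes, the beta subunits Cacnb1 and Cacnb4 fell by 0.38 and 0.36 (limma adjusted p = 0.00188 and 0.00369) and the P/Q-type pore Cacna1a by 0.29 (adjusted p = 0.0313). Cacna1a measured 9.51 and 9.00 in control, 9.30 and 9.31 at the low dose and 9.23 and 9.17 at the high dose. Nearly all of its fall came from the control pair, -0.51 against -0.06. Among the sodium channel genes Scn3a, an alpha subunit best known from development, fell by 0.28 (limma adjusted p = 0.0396).

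The rises were in 3 genes. Kcnma1 measured 9.70 and 9.97 in control, 9.50 and 9.61 at the low dose and 9.50 and 10.24 at the high dose. The later arrays were the highest of their dose, by 0.27 and 0.74, and the rise was 0.50 (1.42-fold, limma adjusted p = 1e-05). Cacna2d2, an extracellular alpha2delta subunit of the kind that binds gabapentin, rose by 0.32 (limma adjusted p = 0.0119), and the AMPA receptor partner Cacng4 by 0.29 (adjusted p = 0.0338). When either control array was left out, 2 channel genes passed, Kcnma1 and Kcnj13, each at a difference set by the high dose pair alone (0.74 and 0.79), where 154 of all genes did (1.31%).

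**Figure D3:**
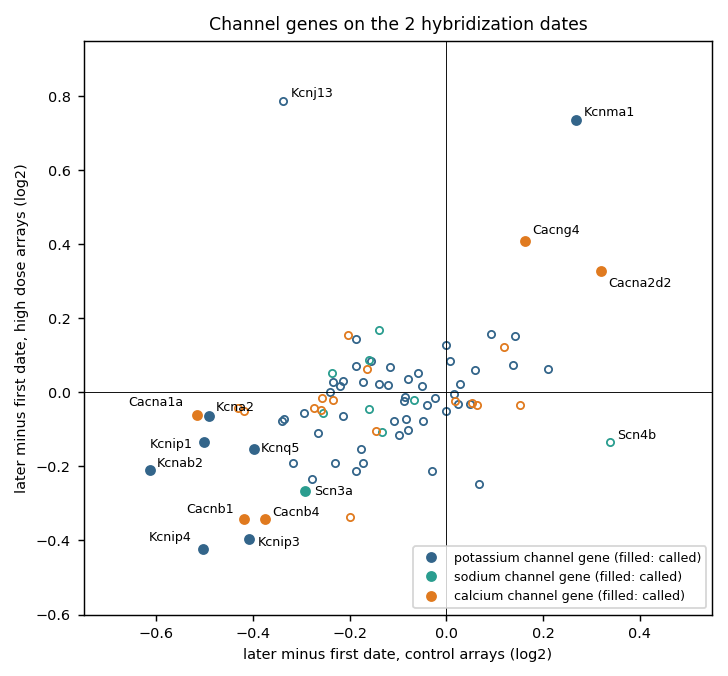
Later minus first date for each channel gene, in the control pair (x axis) and in the high dose pair (y axis), both in log2 units. Filled points passed limma at an adjusted p of 0.05; they lie in the lower left (10 genes) and the upper right (3 genes), while Kcnj13 is at -0.34 in control and 0.79 at the high dose.

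The probe sets of a gene often disagreed about the date, and 61 of the 85 genes had more than 1. Kcnma1 had 5 above the level rule, with 0.50, 0.39, 0.12, -0.18 and -0.49. The brightest gave the gene's call, and others pointed the other way. For Cacnb4 the probe sets gave -0.36, -0.11 and 0.48, for Kcna2 -0.28 and 0.40, for Kcnip3 -0.40 and 0.12, and for Cacng4 0.29 and -0.08. Cacna2d1, which did not pass, gave -0.13 and 0.82. Cacna1a gave -0.29, -0.16 and 0.18, Cacnb1 -0.38, -0.26 and 0.02, and Kcnab2 -0.41 and 0.04. Among the called genes with more than 1 such set, only Kcnip4, Kcnq5 and Kcnip1 had sets of 1 sign. Kcnip4 gave -0.46, -0.22 and -0.14, Kcnq5 -0.27 and -0.25, and Kcnip1 -0.32 and -0.14. When a gene's probe sets were averaged, 1 channel gene passed, the sodium-activated potassium channel gene Kcnt2, which has a single probe set, where 354 of all genes (3.02%) passed. The averages took in all probe sets of a gene, also those below the level rule. The excess over the background seen with the brightest probe sets was absent there. A count of 1 gene is too small to place the channel genes below the background.

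**Figure D4:**
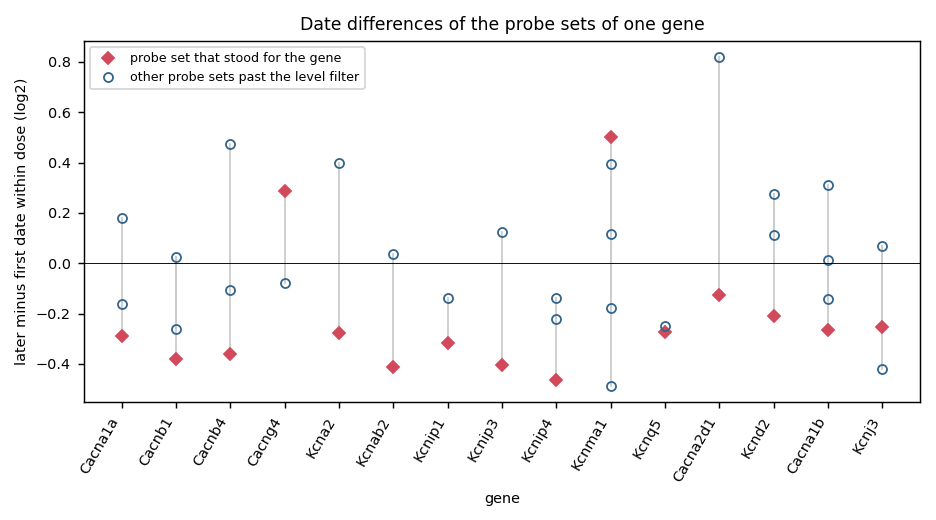
Later minus first date within dose (log2) for each probe set above the level rule, for called genes with more than 1 such set and for Cacna2d1, Kcnd2, Cacna1b and Kcnj3. Diamonds are the sets that stood for a gene and circles its others; for Kcnma1 the 5 sets run from -0.49 to 0.50, while the 3 sets of Kcnip4 are all below 0.

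The inward rectifier genes were not called on date, and the widest range over the 6 arrays was that of Kcnj13, best known from choroid plexus epithelium. It measured 10.04 and 9.70 in control, 10.01 and 10.23 at the low dose and 9.61 and 10.40 at the high dose. No dose group stood apart, and the highest and the lowest value were both high dose arrays. The mean deviation of 7 choroid plexus markers was -0.03 and -0.31 in control, -0.01 and 0.22 at the low dose and -0.17 and 0.30 at the high dose. All 7 had lower means on the left side (median -0.19). Kcnj13 was not in that list, and the part of choroid plexus tissue in its values was not tested. On the first date alone, high dose minus low dose for Kcnj13 was -0.50 and passed (limma adjusted p = 0.0259), as did 9 of all genes (0.0767%). That fit sets 1 high dose array against 2 low dose arrays with a spread shared by all genes, so it has no replicate of the high dose. Kcnj10, the astrocytic potassium buffer channel, and its genome neighbour Kcnj9, a G-protein-gated subunit, spanned much less, with Kcnj10 between 11.31 and 11.56 and Kcnj9 between 10.85 and 11.10.

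The stretch before the Kcnj13 start is shown because it holds TATAAA, whose first base lies 29 bases before the start. TATAAA anywhere in the window of 300 bases described next, on either strand, was found in 6 of the 62 channel genes with a RefSeq window (9.68%, against 8.74% of all genes with one). It lies at chr1:87394730-87394979 on the minus strand of GRCm38.p6, and capitals again mark CG dinucleotides, here 3.
Kcnj13: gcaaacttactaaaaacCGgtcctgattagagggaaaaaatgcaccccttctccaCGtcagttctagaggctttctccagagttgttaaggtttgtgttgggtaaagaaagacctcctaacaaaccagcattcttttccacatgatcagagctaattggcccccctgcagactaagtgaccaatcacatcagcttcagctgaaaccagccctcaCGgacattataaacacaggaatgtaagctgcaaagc

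Windows of 300 bases, from 250 before to 50 after the start, were searched on both strands for spelled motifs. A gene with several windows was counted once, if any of them held the motif. The cyclic AMP response element TGACGTCA was in none of the 62 channel genes with a window, and in 3.61% of all 9485 such genes. Its partial form TGACG, which that element also contains, was in 16 (25.8%, against 35.9%), and the GC box GGGCGG in 38 (61.3%, against 69.4%). The median ratio of observed to expected CG, taken from each gene's window with the highest ratio, was 0.59 for channel genes and 0.79 for all. These are descriptions of letters in a window.

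**Figure D5:**
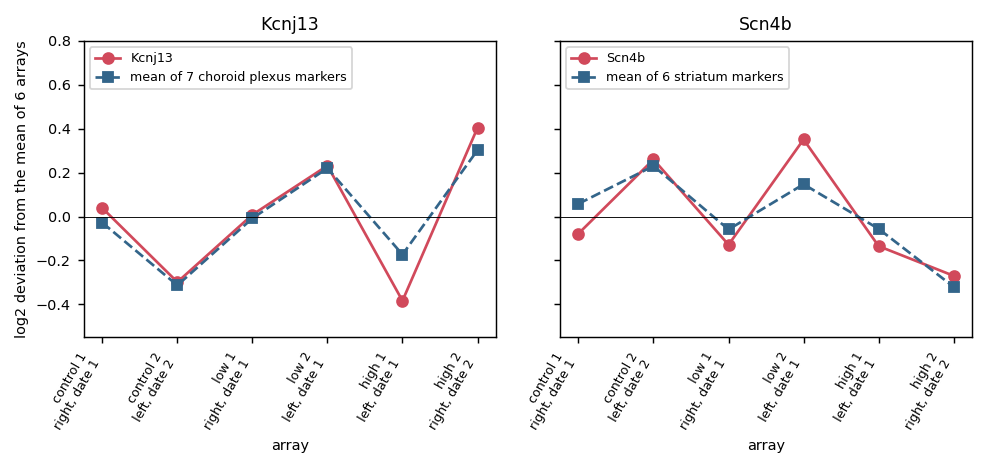
Log2 deviation from the mean of 6 arrays for Kcnj13 beside the mean of 7 choroid plexus markers (left) and for Scn4b beside the mean of 6 striatal markers (right), with the side and date of each array under its name. On high dose replicate 2 the choroid plexus markers stand at 0.30 and the striatal markers at -0.32.

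Left and right pools were compared with dose group as a term. None of the 85 genes and none of the 11739 passed (0.0%, limma), with 2 channel genes and 40 of all genes (0.341%) at an unadjusted p under 0.05. These 2 were Scn4b, at 0.32 for left minus right, and Kcnj13, at -0.30 (SE 0.11 for both, limma adjusted p = 1.0). They are the genes described above beside markers of other tissues. Side groups did not overlap for 4 channel genes (4.71%, against 2.06% of all genes). The difference was below 0 in 51 of 85 channel genes and in 54.1% of all genes. Those without overlap were Kcnj8, a pore of ATP-sensitive channels, higher on the left (1.18%, against 1.24%), and Kcnj6, Kcnd1 and Kcnab3, lower (3.53%, against 0.826%). Kcnj8 measured 7.97, 7.99 and 8.06 in the left and 7.91, 7.92 and 7.82 in the right pools, for a difference of 0.13. The left pool was higher in every dose group for 8 genes (9.41%, against 3.88% of all genes), among them the neighbours Cacng7 and Cacng8, and lower in every group for 3 (3.53%, against 3.71%).

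A list of 40 genes that act with these channels, such as anchoring proteins, small GTPases, a ubiquitin ligase and HCN pores, was read beside them, and 29 met the level rule. None passed in a dose or side comparison. On the later date 4 fell, namely Nedd4l by 0.41, Akap5 by 0.38, Sptbn4 by 0.38 and Stac2 by 0.34 (limma adjusted p from 0.000533 to 0.0067), where 5.73% of all genes fell. Nedd4l encodes a ubiquitin ligase that removes sodium channels from the membrane, and Akap5 and Sptbn4 anchor kinases and axonal channels. At the high against the low dose, Cnih2, an AMPA receptor auxiliary protein, had the largest difference, -0.43 (adjusted p = 0.668).

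The 37 channel genes below the level rule included 34 above the median on no array and Kcna5, Kcnk7 and Scn7a on 1. They included the muscle calcium pore Cacna1s, the sensory neuron sodium pores Scn10a and Scn11a, and the renal inward rectifier Kcnj1. Others below the rule were Kcnn3, Kcnh5, Kcnh7, Kcna3, Kcnj2, Kcnj12 and Kcnk4. Whether a gene below the rule was absent from the tissue was not tested. Every Kv3, A-type, sodium beta and calcium beta gene with a probe set of its own met the rule, against 9 of 15 inward rectifiers, 7 of 12 leak channels and 4 of 8 sodium alpha subunits.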

How the data were processed

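Per the labels and the submitters' processing notes, the authors labelled RNA pools, hybridized them and deposited log2 expression values made with RMA in R 3.0.1, and no source used here gives its other settings. That the values (6.10 to 15.31) are log2 was judged from their range. Of 45101 probe sets, 34945 had 1 gene symbol in the platform annotation, 932 several, 9160 none and 64 were controls. The probe set with the highest mean stood for each of 18193 genes, and 11739 of these exceeded the median of the array on 2 or more arrays.

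Differences were tested with limma 3.58.1 in R 4.3.3 (lmFit, eBayes, two-sided, Benjamini-Hochberg over all 11739 genes, limit 0.05) on all 6 arrays, with 1 coefficient per dose; date and side fits had dose group as a term. The test was tried on simulated data. Genes named are those past the limit, up to 6 higher and 6 lower among those without overlap, family leaders, a panel, genes at the level limit and those with disagreeing probe sets. The members, families and lists were chosen with earlier results of these data known. For control and high dose the replicate number equals the hybridization date given in the labels, so it pairs those arrays; at the low dose both replicates share a date. Alternatives were date, side, RIN or replicate terms, other filters, scalings, probe set rules and variance priors, and leaving out each array. The number of arrays limits the precision. Promoter windows are RefSeq's on GRCm38.p6, matched by Entrez gene identifier for 62 of 85 genes. The files name no genome build, so no coordinates are given apart from those of the printed promoter stretches.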

Additional observations from a re-analysis of the deposited data

Results flagged for a closer look

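The median of the 85 channel genes for high dose minus control had opposite signs by date, -0.106 between first-date arrays and 0.026 between later ones. By side it came to 0.039 for the left pools and -0.104 for the right. All genes tested showed the same signs, at -0.0849 and 0.023 by date and 0.0264 and -0.0874 by side, so the change of sign is not particular to channel genes. Left minus right had a median of -0.156 in control, 0.092 at the low dose and 0.032 at the high dose, beside -0.111, 0.0936 and 0.0042 for all genes. Each of these sets 1 array against 1 array, and the differences between them were not tested.

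Cacnb4 on control replicate 1 measured 12.12, apart from the other 3 first-date arrays (11.87 to 11.91). The gap passed Dixon's limit, which chance passes in about 1 of 20 groups.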

How the results depend on the processing

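With 2 pools per dose and standard errors near 0.10 log2, the dose tests had little power. Differences as large as -0.34 (Kcnip2, high against low dose) and -0.29 (Scn4b, high dose against control) did not pass. A lack of calls thus does not exclude differences of that size. Unless named here, counts and medians of the channel genes moved by less than 1 SD within dose groups or, for counts, 1.5 times (145 values, against 23 that moved more). Small medians changed sign nonetheless. High dose against control was 0.012 after centring. Low dose against control was -0.013 after centring, -0.003 after quantile normalization and -0.019 with hybridization date as a term. Side was 0.031 with RIN and 0.048 without either control array. For named genes 997 values kept direction and call, 75 lost a call, 12 gained 1 and 20 changed sign. With the replicate block, 0 channel genes passed in each dose comparison and the high dose median stayed at -0.04; over all genes it called 10, 32 and 45 (high or low dose against control, high against low), where 1, 5 and 0 passed without it. High dose against control: the median was -0.106 on the first date alone; leaving out 1 array gave 0 to 2 calls and medians from -0.117 to 0.027. Low dose against control: the median was -0.067 with RIN and -0.053 on the first date; leaving out 1 array gave 0 to 7 calls and medians from -0.053 to 0.093. High against low dose: 1 gene passed with the compared arrays only (Kcnip2) and 1 on the first date (Kcnj13); the median was 0.018 after centring and 0.002 after quantile normalization; leaving out 1 array gave 0 to 1 calls and medians from -0.117 to -0.033. Date: 6 genes passed with side as a term, 1 with RIN and 1 with averaged probe sets; the median was 0.004 after centring; leaving out 1 array gave 2 to 12 calls and medians from -0.156 to -0.032. Side: 0 calls throughout.

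Reversed with RIN as a covariate: low dose against control, Kcnma1 0.136, Kcnt1 0.016, Cacng4 0.075, Kcnab2 -0.221 and Cacna2d2 0.14; high against low dose, Kcnip3 0.071, Kcnma1 -0.069, Kcnab2 0.178 and Cacna1h 0.077; date, Cacna1a 0.083 and Cacna1e -0.037. Reversed with averaged probe sets: Cacna2d1 0.146 for high against low dose, Cacnb4 0.003, Kcna2 0.054 and Cacna1e -0.089 for date, and Kcnab3 0.006 for side. Reversed on the first date alone or without a later array: Kcnab2 -0.031 for low dose against control and Kcnma1 -0.051 for high against low dose; over all single arrays left out these ran from -0.031 to 0.582 and from -0.051 to 0.684. The cause was not tested.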
